A study of Mus musculus with 18 samples.

Results

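Natriuretic peptide and fetal myocyte genes were examined in irradiated mouse hearts as 7 genes, Nppa, Nppb, Myh6, Myh7, Acta1, Ankrd1 and Rcan1, chosen by name as markers of hypertrophy and wall stress, by a rule that uses no measured value but was set with earlier results of these data known. All 7 were among the 30072 genes of the tables, and all 7 were among the 15054 genes that passed the filter on low counts (at least 0.23 CPM, counts scaled to the same total in every mouse, in at least 6 mice). RNA was sequenced from 18 wild-type CD-1 mice, an outbred stock, of both sexes and aged at least 8 weeks, with 6 mice per group. The ctrl mice received isoflurane anesthesia without irradiation, and the 2wk and 6wk mice received a single dose of 25 Gy under the same anesthesia and were sampled 2 or 6 weeks post-IR. By the study's methods, sham controls and irradiated mice also had CT imaging. No sampling time is given for ctrl mice, so age at sampling and irradiation cannot be told apart. The labels name the intraventricular septum as the tissue, where the study's methods name ventricular tissue, and they give no sex and no litter for single mice.

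In adult mouse ventricle, Nppa and Nppb encode atrial and B-type natriuretic peptide, hormones that myocytes release when the wall is stretched. Myh6 encodes the fast myosin heavy chain of the adult mouse heart, while Myh7 and the skeletal alpha-actin gene Acta1 are used mainly in the fetal heart and return under load. Ankrd1 encodes a stretch-responsive ankyrin repeat protein of the sarcomere, and Rcan1 encodes an inhibitor of calcineurin that is itself a target of calcineurin and NFAT.

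Totals lay between 11522987 and 15501019 counts per mouse, and 3 counts, the limit that a count of 0 allows, equalled 0.194 to 0.260 CPM (counting error only). The 10 cardiomyocyte markers had counts in every mouse. Their sums, on TMM-scaled totals, were 80140 to 98600 CPM in ctrl, 82560 to 93660 at 2 weeks and 67560 to 73070 at 6 weeks. The skeletal muscle list never exceeded 2.22 CPM in sum, so Acta1 was measured with fast skeletal muscle genes near 0. The 7 atrial markers summed to 108 to 274 CPM in 17 mice and to 799 CPM in 2wk mouse 5. A control mouse (ctrl 4) stood apart with the highest ctrl values of Nppa, Acta1, Ankrd1, Myh7 and Rcan1 and the lowest of Myh6, beside the highest fibroblast (1855 CPM) and macrophage (164 CPM) sums of its group. Y-linked genes had 128.6 to 164.1 CPM in 9 mice, those numbered 4 to 6 in every group, and at most 1.76 CPM in the 9 mice numbered 1 to 3, so sex by Y-linked counts and the numbering of the mice cannot be told apart.

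Promoter sequence is shown for the natriuretic peptide genes, which are neighbors on chromosome 4 but did not vary together, and for Myh7 and Ankrd1, of which the highest values lay in 6wk mice. Nppb (ENSMUSG00000029019, chr4:147985788-147987205, plus strand) and Nppa (ENSMUSG00000041616, chr4:148000722-148002079, plus strand) lie 13516 bases apart. Myh6 (ENSMUSG00000040752, chr14:54941921-54966927) and Myh7 (ENSMUSG00000053093, chr14:54970684-54994626) lie 3756 bases apart on the minus strand of chromosome 14. Sequences are from RefSeq promoter windows of GRCm38.p6, 5′ to 3′ on the gene's strand, and not those of the CD-1 mice. The short stretches are the parts of longer windows that hold the motifs. Those of Nppb and Ankrd1 lie inside the annotated genes, since the RefSeq start of their windows lies downstream of the annotated start. Capitals mark the MCAT letters CATTCC, bound by TEAD factors, and the GATA letters GATAA, bound by GATA factors, on either strand (GGAATG and TTATC in reverse).
Nppa, chr4:148000472-148000721, plus strand: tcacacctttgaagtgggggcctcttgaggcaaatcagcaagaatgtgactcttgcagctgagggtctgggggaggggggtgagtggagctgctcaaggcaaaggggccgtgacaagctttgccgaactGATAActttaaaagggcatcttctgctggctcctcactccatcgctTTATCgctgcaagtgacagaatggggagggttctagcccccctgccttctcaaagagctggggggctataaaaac
Nppb, chr4:147985650-147985787, plus strand: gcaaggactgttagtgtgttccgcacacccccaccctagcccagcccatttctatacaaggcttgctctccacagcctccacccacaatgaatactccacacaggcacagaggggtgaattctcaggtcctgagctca
Nppb, chr4:147985793-147985822, plus strand: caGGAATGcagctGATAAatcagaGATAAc
Myh7, chr14:54994627-54994876, minus strand: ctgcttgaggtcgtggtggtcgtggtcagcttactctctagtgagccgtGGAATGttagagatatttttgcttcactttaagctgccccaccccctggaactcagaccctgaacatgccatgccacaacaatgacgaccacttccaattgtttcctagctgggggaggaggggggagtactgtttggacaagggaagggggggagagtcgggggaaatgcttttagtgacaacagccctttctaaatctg
Ankrd1, chr19:36120037-36120066, minus strand: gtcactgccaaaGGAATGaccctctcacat
Ankrd1, chr19:36119950-36119979, minus strand: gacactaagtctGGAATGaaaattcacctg
Ankrd1, chr19:36119874-36119903, minus strand: caggctggaagaTTATCtcacccagcccta

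All 7 members had a window, 9 in total, and each was searched over the 250 bases before the RefSeq start. For Nppb, Myh6, Ankrd1 and Rcan1 the matches below lie inside the annotated gene. MCAT letters stood at 1 place each for Nppb, Myh6, Myh7 and Acta1 and at 2 places for Ankrd1, and 12.6% of the 32851 windows of all genes held them. GATA letters stood at 2 places each for Nppa and Nppb and at 1 for Ankrd1, against 22.6% of all windows. The NFAT letters GGAAA, or TTTCC when read on the other strand, stood at 3 places in 1 of the 2 Rcan1 windows and at 2 in each Myh7 window, which are the same 2 places since these windows overlap, against 55.6% of all windows. These are matches of letters and not sites.

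The members differed by orders of magnitude in level, and their order was nearly the same in all groups. In TPM, which is scaled for transcript length as well (medians of 6 mice), the control order was Myh6 (8288), Ankrd1 (1039), Acta1 (779), Nppa (403), Myh7 (107), Rcan1 (32.6) and Nppb (4.53). Myh6 lay above every other member in every mouse. Ankrd1 and Acta1, Acta1 and Nppa, Myh7 and Rcan1, and Rcan1 and Nppb had ctrl ranges that overlapped. Within single ctrl mice, Ankrd1 exceeded Acta1, Acta1 exceeded Nppa and Rcan1 exceeded Nppb in 4 of 6 each, so these neighbors did not differ beyond their spread, whereas Myh7 exceeded Rcan1 in 6 of 6. The 6wk medians were 7100 for Myh6, 1985 for Ankrd1, 709 for Acta1, 651 for Nppa, 274 for Myh7, 75.0 for Nppb and 50.5 for Rcan1, and only Myh6 had a range that did not overlap with that of the next gene. By median, Rcan1 and Nppb changed places between ctrl and both irradiated groups. Within single mice, Nppb exceeded Rcan1 in 3 of 6 at 2 weeks and 4 of 6 at 6 weeks, with overlapping ranges. Acta1 reads can be split with those of Actc1, and Myh6 reads with those of Myh7, since the coding sequences are similar. Annotated genes on the opposite strand overlap Nppa, Myh6, Myh7, Acta1 and Rcan1, and whether counting used strand is not given in the sources used here, so reads of both strands cannot be told apart.

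**Figure D1:**
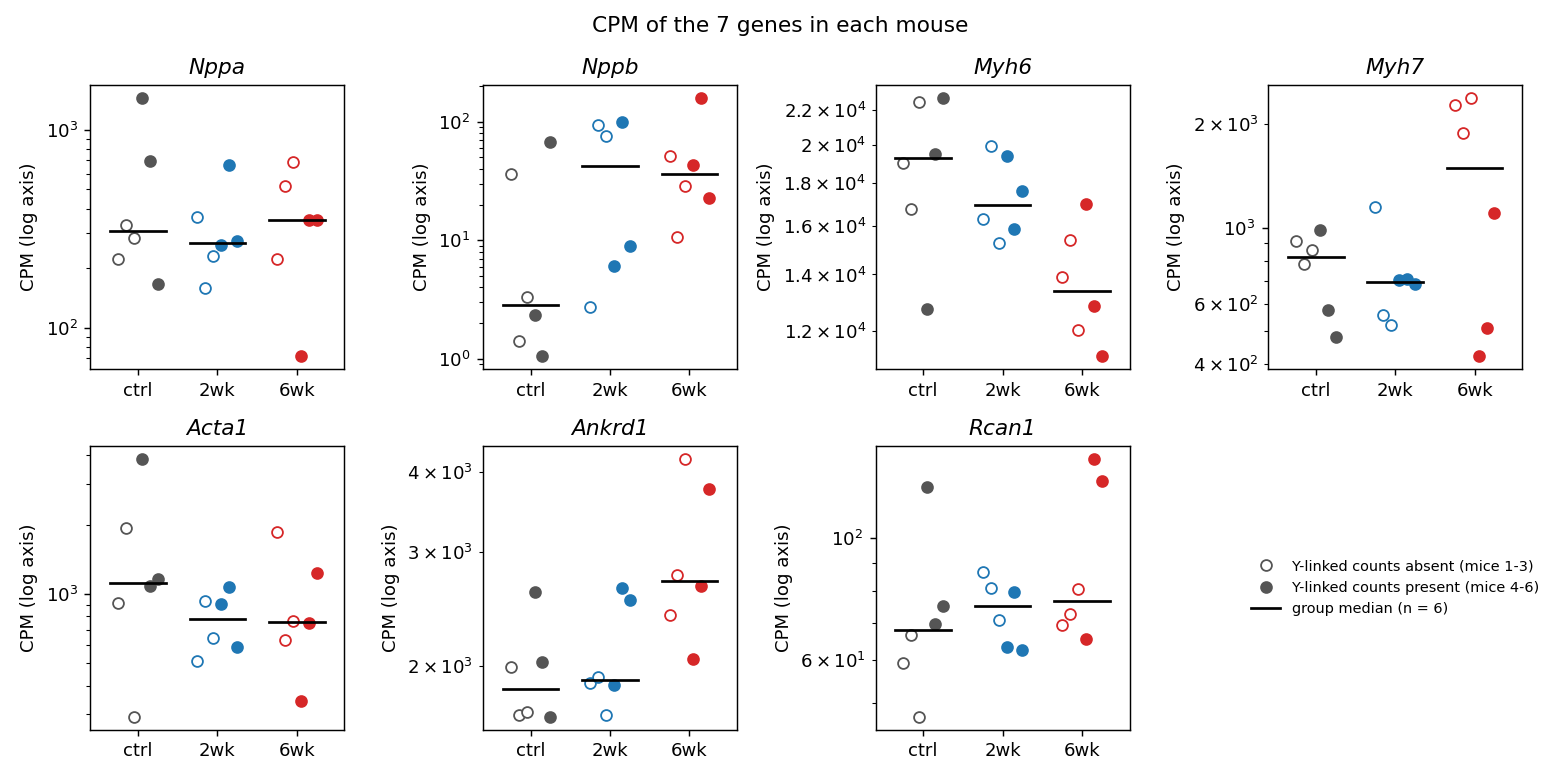
CPM of each of the 7 genes (log axis) in every mouse by group, with group medians as bars and open symbols for mice without Y-linked counts. Nppb ran from 1.06 to 158.5 CPM across the 18 mice, while Ankrd1 stayed between 1669 and 4191 CPM.

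Few members passed the test, and their share was close to that of all genes. Called means an adjusted P under 0.05 with edgeR's quasi-likelihood test and Benjamini-Hochberg adjustment over all 15054 genes. In the 2wk mice, 0 of 7 members were called against ctrl, and 5.02% of all genes were (3.09% higher, 1.93% lower). Acta1 alone had an unadjusted P under 0.05 in edgeR's fit. In the 6wk mice, 2 of 7 were called against ctrl, Ankrd1 higher and Myh6 lower, and so were 25.0% of all genes (13.5% higher, 11.5% lower). From 2 to 6 weeks, 0 of 7 were called, beside 5.33% of all genes (3.31% higher, 2.01% lower), and 3 members had an unadjusted P under 0.05 in edgeR's fit, namely Myh6, Myh7 and Ankrd1. DESeq2 called 0, 3 and 1 members in these comparisons, beside 703, 2158 and 717 of all genes higher and 526, 1796 and 447 lower. With an absolute log2 fold change above 1 required as well, 0 members were called in each comparison, against 0.903%, 5.95% and 1.14% of all genes. In no comparison did the groups of a member fail to overlap, whereas they did not overlap for 3.24%, 9.23% and 3.54% of all genes. The median log2 fold change of the 7 members was −0.09 (2wk against ctrl), 0.33 (6wk against ctrl) and 0.26 (6wk against 2wk), beside −0.0015, −0.019 and −8e-04 over all genes tested. With library size as the only scaling, the median of all genes moved to 0.15, 0.24 and 0.11, and on the log2(TPM + 1) scale to 0.18, 0.29 and 0.11. The split of all called genes moved with it, from 61.6% higher (2wk against ctrl), 54% (6wk against ctrl) and 62.2% (6wk against 2wk) by TMM (edgeR's scaling by the trimmed mean of ratios, used here) to 95.4%, 94.4% and 91.3% by library size. On the log2(TPM + 1) scale 98.6%, 98.4% and 95.6% were higher, and with mice scaled to the cardiomyocyte markers, an analysis chosen after seeing the data, 75.3%, 97.3% and 99%. A change is therefore relative to most other genes here, and which scaling is right was not tested. With library size as the only scaling, 3 members were called at 6 weeks, Ankrd1, Myh7 and Rcan1, and all 3 were higher. By that scaling 5494 of the 15054 genes were higher at 6 weeks and 326 lower. Of the directions below, those of Myh6 and Myh7 at 2 weeks and of Nppa at 6 weeks turned under such a scaling, none of them called.

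**Figure D2:**
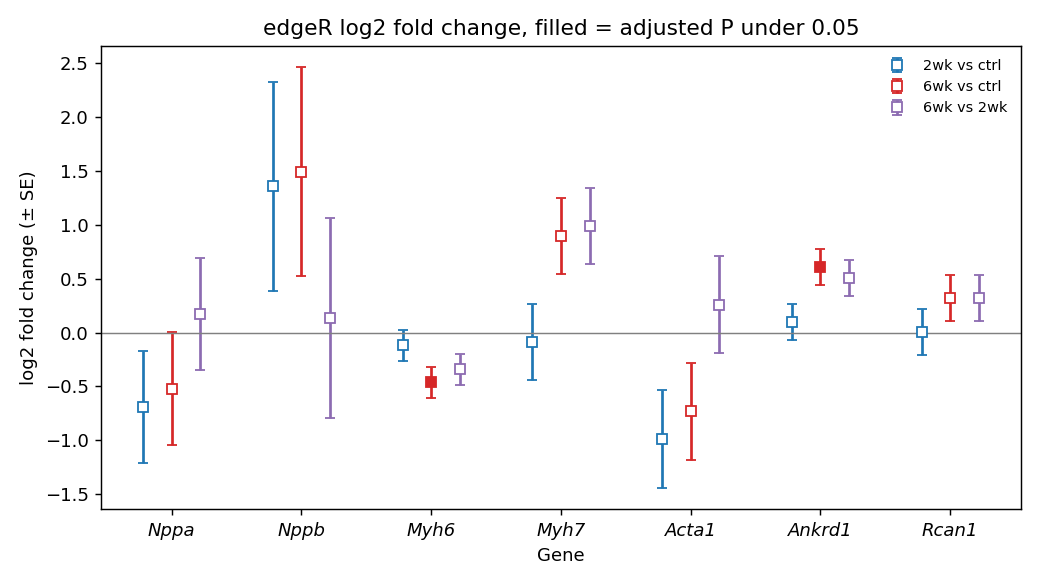
Log2 fold change of each gene from edgeR (± SE) in the 3 comparisons, with filled symbols at an adjusted P under 0.05. Ankrd1 (0.61) and Myh6 (−0.46) at 6 weeks against ctrl are the only filled symbols, and the SE of Nppb reaches 0.97.

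Ankrd1 (ENSMUSG00000024803, chr19:36111961-36120099, minus strand) was the member that rose most clearly. It had 1669, 1844 and 2607 CPM (lowest, median and highest of 6 mice) in ctrl, 1680, 1903 and 2640 at 2 weeks, and 2048, 2713 and 4191 at 6 weeks. Every 6wk mouse lay above the ctrl median, although the ranges overlapped because ctrl 4 reached 2607 CPM. Ankrd1 rose by 0.61 on the log2 scale against ctrl by 6 weeks (SE 0.169, edgeR adjusted P = 0.0118), while the 2wk value was 0.10 (SE 0.168, adjusted P = 0.786). From 2 to 6 weeks the difference was 0.51 (SE 0.168, edgeR adjusted P = 0.0838). The 6-week call held in all 14 alternative analyses and without each of the 18 mice in turn, with an edgeR adjusted P of up to 0.0351 in the latter. The difference from 2 to 6 weeks was called without 6wk mouse 4 (0.60, edgeR adjusted P = 0.0351).

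Myh6 was lower at 6 weeks, by a log2 value close to the median of the cardiomyocyte markers. It had 12730, 19260 and 22750 CPM in ctrl, 15280, 16950 and 19910 at 2 weeks, and 11190, 13380 and 17010 at 6 weeks. No 6wk mouse reached the ctrl median, and ctrl 4 (12730 CPM) and ctrl 2 (16780 CPM) lay inside the 6wk range. Against ctrl, the log2 fold change of the 6wk mice was −0.46 (SE 0.145, edgeR adjusted P = 0.0259) and that of the 2wk mice −0.12 (SE 0.145, adjusted P = 0.696). With library size as the only scaling the 2wk log2 fold change turned to 0.037, again not called. The value from 2 to 6 weeks was −0.34 (SE 0.145, edgeR adjusted P = 0.179). Of the 10 cardiomyocyte markers, a list without Myh6, 8 were lower at 6 weeks and 0 higher (median −0.45), and by library size 2 were lower and 0 higher (median −0.18). Of all genes, 11.5% were lower and 13.5% higher at 6 weeks by TMM. Scaled to the sum of those markers, Myh6 had a log2 fold change of −0.11 (edgeR adjusted P = 0.453), an analysis chosen after seeing the data. The share of counts from mitochondrially encoded genes was 19.8% to 25.0% in ctrl, 17.8% to 20.6% at 2 weeks and 16.5% to 20.1% at 6 weeks, and the TMM factors were 0.844 to 0.991, 0.962 to 1.04 and 1.04 to 1.13. Without the mitochondrially encoded genes, Myh6 had a log2 fold change of −0.46 at 6 weeks (edgeR adjusted P = 0.0307). In bulk tissue, fewer myocytes and less RNA per myocyte cannot be told apart. The call also ended with library size as the only scaling (−0.19, edgeR adjusted P = 0.249), and without ctrl 3 (−0.40), ctrl 6 (−0.40), 6wk 3 (−0.42) or 6wk 6 (−0.40), with edgeR adjusted P values of 0.0607 to 0.0658.

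Myh7 separated the 6wk mice into high and low animals. It had 481, 823 and 983 CPM in ctrl, 521, 694 and 1147 at 2 weeks, and 423, 1493 and 2386 at 6 weeks. Of the 6wk mice, 3 lay at 1881, 2275 and 2386 CPM, above every other mouse, 1 at 1106 CPM, and 2 at 423 and 510 CPM, within or below the ctrl range. On the log2 scale, 6wk mice differed from ctrl by 0.90 (SE 0.354, edgeR adjusted P = 0.0715) and from 2wk mice by 0.99 (SE 0.355, adjusted P = 0.110). The 2wk value was −0.09 (SE 0.352, edgeR adjusted P = 0.920), or 0.05 with library size as the only scaling. The 6-week difference was called without 6wk mouse 4 (1.09, edgeR adjusted P = 0.0144) or 6wk mouse 5 (1.07, adjusted P = 0.0229), and with DESeq2 (0.91, adjusted P = 0.0401). With library size as the only scaling it was 1.17 (edgeR adjusted P = 0.0179). Without 6wk mouse 4, the difference between the time points was also called (1.18, edgeR adjusted P = 0.0288).

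The 3 high 6wk mice were the 3 without Y-linked counts. In mice without Y-linked counts, Myh7 had 785 to 913 CPM in ctrl (mean 853), 521 to 1147 at 2 weeks (742) and 1881 to 2386 at 6 weeks (2181), n = 3 each. In mice with Y-linked counts, it had 481 to 983 CPM in ctrl (mean 680), 684 to 711 at 2 weeks (700) and 423 to 1106 at 6 weeks (680). Fitted with separate effects, a split chosen after seeing the data, the 6-week log2 fold change was 1.35 in mice without Y-linked counts (SE 0.347, edgeR adjusted P = 0.018) and −0.0015 in mice with them (SE 0.341, edgeR adjusted P = 1). By the same rule 14.0% and 11.0% of all genes were called in these mice. The difference itself was 1.36 (SE 0.485), with an unadjusted P of 0.0131 and an adjusted P of 0.809 in edgeR's fit over all genes, of which 0.00664% (1 gene) passed. From 2 to 6 weeks the same difference was 1.60 (SE 0.486, edgeR adjusted P = 0.413). Ankrd1 rose by 0.80 in mice without Y-linked counts (SE 0.234, edgeR adjusted P = 0.0325) and had a log2 fold change of 0.43 in mice with them (adjusted P = 0.260), and the difference of 0.38 had an adjusted P of 0.933. Nppa changed by 0.77 and −1.59 in the same mice, neither of them called, and the difference was 2.36 (SE 0.948, edgeR adjusted P = 0.823).

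**Figure D3:**
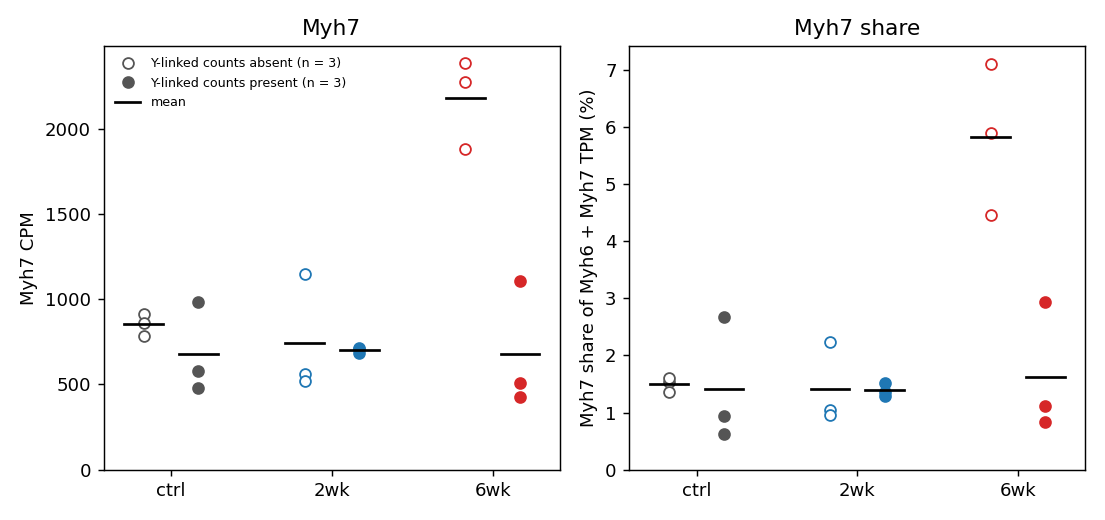
Myh7 in CPM (left) and as its percentage of Myh6 and Myh7 TPM (right) by group, with open symbols for mice without and filled symbols for mice with Y-linked counts (n = 3 each, bars are means). The 3 open symbols at 6 weeks lie at 1881 to 2386 CPM and 4.46% to 7.09%, above all other mice.

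As a share of both myosin heavy chains, a value that does not depend on scaling between mice, Myh7 made up 1.46% ± 0.704 in ctrl, 1.40% ± 0.456 at 2 weeks and 3.72% ± 2.55 at 6 weeks (SD, n = 6, TPM). At 6 weeks, 4 of 6 mice were above every ctrl mouse. The exact permutation test gave P = 0.0779 against ctrl and P = 0.0628 against 2 weeks, both 0.247 when adjusted over the 9 tests of ratios, and the smallest P it can give with 6 mice per group is 0.00217. Even in the mouse with the highest share (7.09%), Myh6 made up the rest. These shares rest on the length scaling of TPM. Mean CPM were 767 for Myh7 and 18880 for Myh6 in ctrl, and 1430 and 13730 at 6 weeks. Mean TPM were 107 and 7786 in ctrl, and 261 and 7119 at 6 weeks. By CPM the Myh7 share is higher in both groups, and which scale is closer was not tested.

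Acta1 (ENSMUSG00000031972, chr8:123891769-123894751, minus strand) had its highest values in ctrl mice. It had 293, 1122 and 3874 CPM in ctrl, 510, 776 and 1077 at 2 weeks, and 344, 754 and 1860 at 6 weeks. The ctrl range enclosed both irradiated ranges, and ctrl 4 and ctrl 2 (1929 CPM) were above all irradiated mice. The 2wk mice differed from ctrl by −0.99 on the log2 scale (SE 0.454, edgeR adjusted P = 0.224) and the 6wk mice by −0.73 (SE 0.452, adjusted P = 0.264). Without ctrl 4 these were −0.47 (adjusted P = 0.538) and −0.21 (adjusted P = 0.749) in edgeR's fit. By TMM, Actc1, the cardiac alpha-actin gene, fell without overlap at 6 weeks, from 4714 ± 679 to 3080 ± 369 CPM (SD, n = 6, log2 fold change −0.61, SE 0.103, edgeR adjusted P = 2.92e-04). In TPM its ranges overlapped, with 2902 to 4483 in ctrl and 2611 to 3580 at 6 weeks. The log2 fold change of Actc1 was −0.35 by library size (edgeR adjusted P = 0.00609). On the log2(TPM + 1) scale it was −0.21 and not called (limma adjusted P = 0.0737). Acta1 made up 20.6% ± 11.5 of both alpha-actins in ctrl, 14.5% ± 3.65 at 2 weeks and 20.5% ± 8.66 at 6 weeks (SD, n = 6, TPM), and the exact permutation test against ctrl gave P = 0.266 and P = 0.996.

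Nppa varied more between mice than between groups. It had 166, 306.5 and 1451 CPM in ctrl, 159, 267 and 665 at 2 weeks, and 71.9, 349 and 684 at 6 weeks. The 2 highest mice of all were ctrl 4 (1451 CPM) and ctrl 5 (695.5 CPM). The 2wk log2 fold change was −0.69 (SE 0.524, edgeR adjusted P = 0.491). The 6wk value was −0.52 (SE 0.522, edgeR adjusted P = 0.516), and it turned to 0.11 without ctrl 4 (adjusted P = 0.894) and to 0.0029 on the log2(TPM + 1) scale. The 2wk mouse with the highest Nppa (mouse 5, 665 CPM) was also the mouse with the highest atrial marker sum (799 CPM). Across the 18 mice, with group means removed, Nppa and the mean log2 CPM of the atrial genes Sln, Myl7 and Myl4 had a Pearson r of 0.489, while 6wk mouse 3 had the highest 6wk Nppa with Sln at 1.39 CPM. A fit with these 3 genes as a covariate, chosen after seeing the data, gave −0.34 for Nppa at 6 weeks (SE 0.476, edgeR adjusted P = 0.653).

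Rcan1 (ENSMUSG00000022951, chr16:92391953-92470867, minus strand) had 47.3, 68.2 and 124.2 CPM in ctrl, 62.6, 75.4 and 86.7 at 2 weeks, and 65.5, 76.9 and 139.7 at 6 weeks. At 6 weeks, mice 5 and 6 (139.7 and 126.9 CPM) exceeded every other mouse, while the other 4 lay between 65.5 and 80.9 CPM, within the ctrl range. Its 2wk log2 fold change was 0.0046 (SE 0.214, edgeR adjusted P = 0.994), and its 6wk value was 0.33 (SE 0.214, adjusted P = 0.296). Without ctrl 4 the 6-week difference was 0.54 (edgeR adjusted P = 0.0422), and with library size as the only scaling it was 0.58 (adjusted P = 0.041).

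Nppb had the widest range of the members, 1.06 to 158.5 CPM. The ctrl mice had 36, 1.42, 3.33, 2.36, 1.06 and 67.5 CPM (mice 1 to 6), the 2wk mice 2.72, 93.5, 75.9, 6.08, 99.5 and 8.87 CPM, and the 6wk mice 51.4, 10.7, 28.6, 43.4, 158.5 and 22.7 CPM. In ctrl and at 2 weeks the mice fell into low animals under 9 CPM and high animals at or above 36 CPM, and at 6 weeks no mouse was under 10.7 CPM. Against ctrl, the 2wk log2 fold change was 1.36 (SE 0.971, edgeR adjusted P = 0.460), and the 6wk one was 1.49 (SE 0.973, adjusted P = 0.290). On the log2(TPM + 1) scale, where every mouse has equal weight, the 6-week difference was 2.87 (SE 1.03, limma adjusted P = 0.0279), beside a shift of 0.29 in the median of all genes on that scale. edgeR's value was 0.76 without the highest mouse, 6wk 5 (adjusted P = 0.631), and 2.51 without ctrl 6 (adjusted P = 0.0907). The ratio of Nppb to Nppa (log2, TPM) was −5.95 ± 3.44 in ctrl, −3.53 ± 2.43 at 2 weeks and −2.80 ± 1.97 at 6 weeks (SD, n = 6), with exact permutation P values of 0.188 and 0.0823 against ctrl (adjusted 0.339 and 0.247).

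The level of Nppb in a mouse went with that of its neighbors on chromosome 4. Genes were ranked by the Pearson r of their log2 CPM with that of a member after group means were removed (18 mice, values that share their libraries, given as a description). Of the 20 genes most like Nppb, 16 were on chromosome 4 and 12 within 2 Mb of it. Of the 46 genes tested within 2 Mb, 15 (32.6%) had an absolute r above 0.7, against 61 genes (0.405%) of all genes tested. For the other 6 members, 0 of the 20 most like genes lay within 2 Mb. The genes most like Nppb were Fbxo44 (r = 0.920, chr4:148152800-148160482), Zfp984 (r = 0.913, chr4:147753974-147809788) and 2510039O18Rik (r = 0.900, chr4:147940895-147947314). Others included the abundant Mfn2, which encodes a mitochondrial fusion protein (r = 0.856), Plod1, a collagen lysyl hydroxylase (r = 0.762), Agtrap, which encodes an angiotensin receptor-associated protein (r = 0.788), and Clcn6, a chloride transporter gene next to Nppa (r = 0.714). Nppa itself, between Nppb and Clcn6, had r = −0.391. None of the 15 neighbors was called in any comparison, with edgeR adjusted P values of 0.103 or more.

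**Figure D4:**
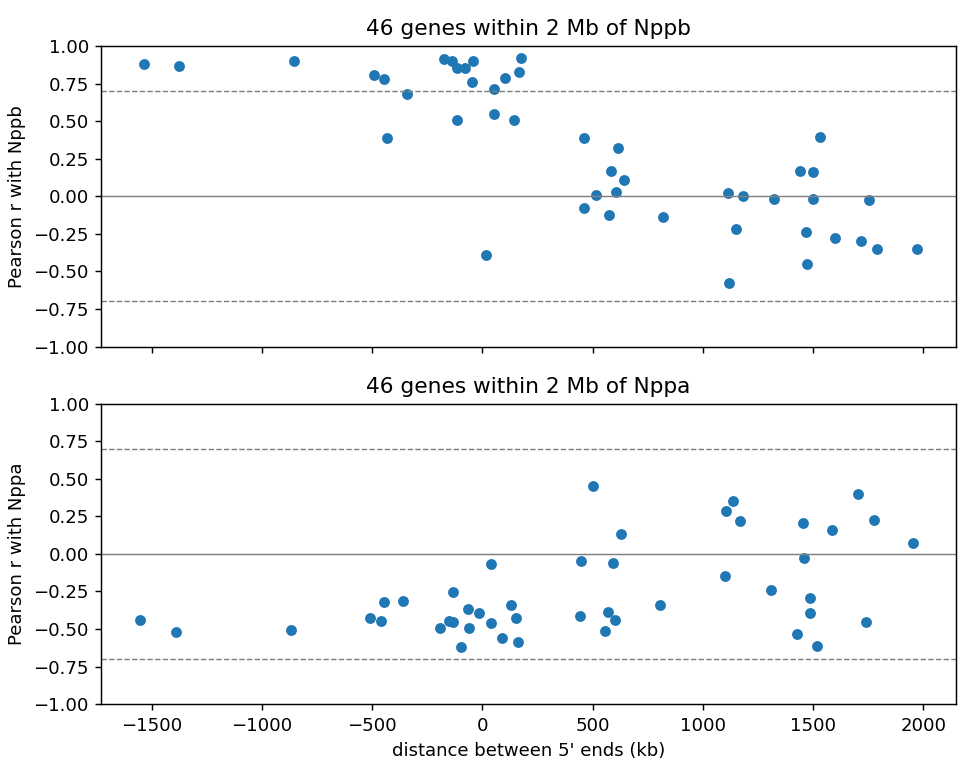
Pearson r with Nppb (top) and with Nppa (bottom) of each gene tested within 2 Mb, against the distance between 5′ ends in kb (46 genes each, 18 mice, group means removed, dashed lines at 0.7 and −0.7). Genes with r above 0.7 lie between −1536.8 and 174.7 kb, and none reaches 0.7 for Nppa.

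Fbxo44, which encodes an F-box protein of ubiquitin ligases, divided the mice into sets with no value in between. It had 0.387 to 1.67 CPM in 10 mice (4 ctrl, 3 at 2 weeks, 3 at 6 weeks) and 4.95 to 12.6 CPM in 8 mice (2, 3 and 3). Nppb was 1.06 to 28.6 CPM in the first set and 36 to 158.5 CPM in the second, without overlap. Within the first set, Nppb lay at 1.06 to 3.33 CPM in ctrl, 2.72 to 8.87 at 2 weeks and 10.7 to 28.6 at 6 weeks. Within the second, it lay at 36 and 67.5 CPM in ctrl, 75.9 to 99.5 at 2 weeks and 43.4 to 158.5 at 6 weeks. Since the mice fall into separate sets, the r of 0.920 rests mainly on the gap between them, and within the sets r was 0.541 (n = 10) and 0.474 (n = 8). With log2 CPM of Fbxo44 as a covariate, chosen after seeing the data as the gene most like Nppb, the SE of the 6-week change fell from 0.973 to 0.472 and the log2 fold change was 2.31 (edgeR adjusted P = 0.00165). The 2wk value was 1.40 (SE 0.458, edgeR adjusted P = 0.0861). Picking Fbxo44 for its r with Nppb by itself lowers the SE. The adjusted P values with this covariate do not account for that choice, so no conclusion is drawn from them. With the first principal component of the 45 neighbors in place of Fbxo44, also chosen after seeing the data, the 6-week value was 1.28 (SE 0.457, edgeR adjusted P = 0.0515), so the call depended on the covariate. Genotypes of these outbred mice were not analysed here.

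**Figure D5:**
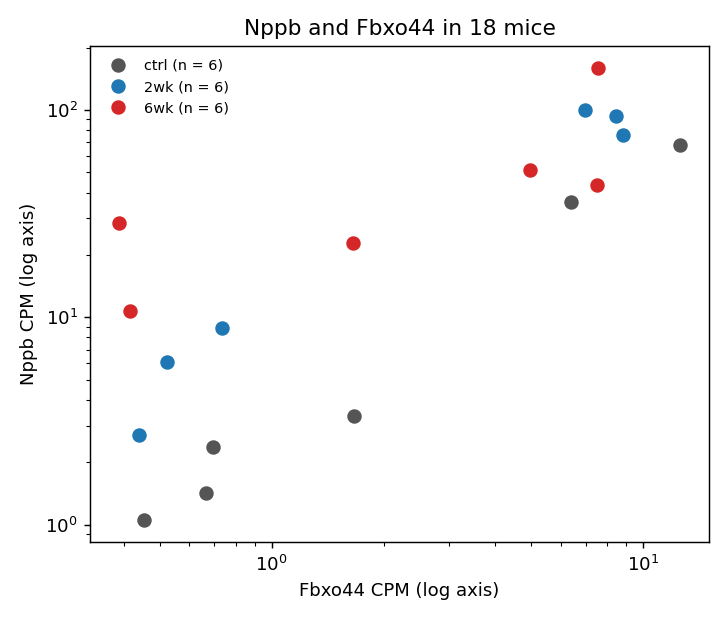
Nppb against Fbxo44 in CPM (both log axes) in 18 mice by group (n = 6). Mice with Fbxo44 of 0.387 to 1.67 CPM and of 4.95 to 12.6 CPM form separate sets. In the first set the 6wk mice (10.7 to 28.6 CPM of Nppb) lie above the ctrl mice (1.06 to 3.33 CPM). In the second set the 6wk mice (43.4 to 158.5 CPM) and the ctrl mice (36 and 67.5 CPM) overlap.

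Members also varied together between mice of a group. Of 21 pairs, 4 had a Pearson r of log2 CPM past an adjusted P of 0.05 (100000 permutations within groups, 18 mice, group means removed). Nppa and Ankrd1 went together (r = 0.755, rho = 0.736, permutation P = 6.3e-04 and 0.00171, adjusted 0.0132 and 0.0359), and r was 0.618 without ctrl 4 and 6wk 4. Myh6 went against Nppa (r = −0.706), Ankrd1 (r = −0.633) and Rcan1 (r = −0.692), with adjusted permutation P values of 0.0391, 0.0454 and 0.0454, while their Spearman rho of −0.637, −0.482 and −0.546 had adjusted P values of 0.118, 0.256 and 0.256 (permutation). Without the 2 farthest mice these r fell in size to −0.478, −0.458 and −0.432. The 2 mice left out included ctrl 4 in each of these 4 pairs. Ankrd1 and Nppa also had the highest r with the 3 atrial genes (0.509 and 0.489), whose part in their correlation was not tested.

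The genes most like the other members by the same measure did not lie within 2 Mb of them. They were Nox4 (r = 0.893), an NADPH oxidase, Rab11fip1 (0.852) and Fgl2 (0.831) for Nppa, and Gcnt4 (0.811), Mcoln2 (0.788) and Il17ra (0.787) for Ankrd1. For Myh6 they were Idh3b (0.956), Trip10 (0.952) and Idh3g (0.944), of which Idh3b and Idh3g encode subunits of mitochondrial isocitrate dehydrogenase. For Myh7 they included Gm266 (0.845) and Scarf2 (0.834), and for Rcan1 they were Cdr2 (0.871), Cnn2 (0.870) and Clock (0.856). For Acta1 they were Fstl1 (0.873), Efemp2 (0.858) and Fn1 (0.841), which encode secreted or matrix proteins. Ctrl 4 had both the highest Acta1 (3874 CPM) and the highest fibroblast marker sum (1855 CPM) of all mice. How far these r rest on ctrl 4 was not tested.

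By TMM, more genes of the pathways around the members were lower than higher at 6 weeks. This balance depended on the scaling between mice. Of 93 genes in 7 lists, 89 were tested. Against ctrl, 5 were lower and 0 higher at 2 weeks (median −0.11), and 30 were lower and 2 higher at 6 weeks (median −0.21). From 2 to 6 weeks, 6 were lower and 0 higher (median −0.12). These medians stand beside −0.0015, −0.019 and −8e-04 for all genes tested. Of all genes, 1.93%, 11.5% and 2.01% were lower and 3.09%, 13.5% and 3.31% higher in these comparisons. With library size as the only scaling, 1 was lower and 5 higher at 2 weeks (median 0.043), 9 were lower and 15 higher at 6 weeks (median 0.055), and 3 were lower and 0 higher between the time points (median −0.0074). On the log2(TPM + 1) scale 5 were lower and 30 higher at 6 weeks (limma, median 0.16), and scaled to the cardiomyocyte markers 8 were lower and 28 higher (median 0.13). By library size 82, 326 and 104 of the 15054 genes were lower and 1707, 5494 and 1098 higher in these comparisons. At 6 weeks 118 of all genes were lower and 7354 higher on the log2(TPM + 1) scale, and 191 and 6909 scaled to the markers. Counts below are by TMM, and each is followed by the count with library size as the only scaling. The shares and counts of all genes above apply to each list.

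Among the 10 tested genes that process or bind natriuretic peptides, 4 were lower at 6 weeks and 0 higher (2 and 2 by library size). Mme, which encodes neprilysin, a protease that degrades the peptides, fell from 16.3 ± 1.18 to 8.43 ± 3.01 CPM (SD, n = 6, log2 fold change −0.96, edgeR adjusted P = 3.64e-04). Npr3, the clearance receptor, fell from 26.0 ± 6.59 to 15.7 ± 2.40 CPM without overlap (−0.73, edgeR adjusted P = 0.00403), Pcsk6, a convertase, changed by −0.39 (adjusted P = 0.00366) and Ide, another peptidase, by −0.22 (adjusted P = 0.00682). By library size the log2 fold changes were −0.70 for Mme and −0.47 for Npr3, both called, −0.13 for Pcsk6 (edgeR adjusted P = 0.312) and 0.04 for Ide, which turned (adjusted P = 0.652). Npr1, the signaling receptor of both peptides, had a log2 fold change of 0.03 at 6 weeks (edgeR adjusted P = 0.859), or 0.29 by library size. Pcsk6 was also lower at 6 than at 2 weeks (−0.56, edgeR adjusted P = 0.00309).

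In the sarcomere list, 6 of 12 tested genes were lower at 6 weeks and 1 was higher (2 and 1 by library size). Genes in both this list and the cardiomyocyte markers include Actc1, Tnnt2 and Myl3, so the counts of these lists are not independent. Tpm3, a slow tropomyosin gene, rose from 32.8 ± 14.4 to 79.3 ± 26.6 CPM (SD, n = 6, log2 fold change 1.27, SE 0.335, edgeR adjusted P = 0.00907). Tnnt1, the slow skeletal troponin T gene, fell by 0.82 (edgeR adjusted P = 0.00505) and Tnnt2, the cardiac one, by 0.53 (edgeR adjusted P = 0.0367). Tpm3 also encodes cytoskeletal tropomyosins of other cells, which counts per gene do not tell apart. By library size Tpm3 (1.51) and Tnnt1 (−0.55) were still called, and Tnnt2 (−0.27) was not. The atrial light chains Myl7 and Myl4 had log2 fold changes of −0.81 and −0.93 with SEs of 1.14 and 1.04.

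Of 10 adult ventricle genes known to fall in hypertrophy, 9 were lower and 0 higher at 6 weeks, with a median of −0.39 (3 and 0 by library size, median −0.13). Kcnip2, a potassium channel subunit, fell from 198.2 ± 32.4 to 117.5 ± 26.2 CPM without overlap (SD, n = 6, log2 fold change −0.75, edgeR adjusted P = 4.84e-04). Ckmt2, the mitochondrial creatine kinase, fell by 0.66 (edgeR adjusted P = 4.32e-04), Ryr2, the calcium release channel, by 0.60 (adjusted P = 1.68e-04), and Ppargc1a, a regulator of mitochondrial genes, by 0.62 from 2 to 6 weeks (adjusted P = 0.0156). Ppara alone was not called (−0.13, turning to 0.14 by library size). Kcnip2 (−0.50), Ckmt2 (−0.40) and Ryr2 (−0.34) were also called by library size. Pln and Ryr2 are in both this list and the cardiomyocyte markers.

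The stretch and load list had 4 of 19 genes lower and 0 higher at 6 weeks (1 and 0 by library size), while Ankrd1 was higher. Csrp3, which encodes muscle LIM protein, fell from 750 ± 75.7 to 517 ± 45.9 CPM without overlap (SD, n = 6, log2 fold change −0.54, edgeR adjusted P = 5.29e-05), Lmcd1, a LIM protein gene, by 0.53 (adjusted P = 0.0108) and Fhl2 by 0.45 (adjusted P = 0.0136). By library size Csrp3 (−0.27, edgeR adjusted P = 0.00628) was the one still called. Ccn2, a growth factor gene, had the highest value of the list (0.26, edgeR adjusted P = 0.656). Ankrd2, a relative of Ankrd1, had under 1 CPM on average in each group.

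Around Rcan1, 3 of 17 calcineurin and NFAT genes were lower and 1 higher at 6 weeks (1 and 7 by library size). Akap5, which anchors calcineurin, was the only one called at 2 weeks (−0.82, SE 0.196, edgeR adjusted P = 0.0217), and at 6 weeks it fell from 8.14 ± 2.49 to 3.80 ± 0.740 CPM without overlap (SD, n = 6, −1.09, adjusted P = 6.02e-04). Rcan3, a relative of Rcan1, rose by 0.35 (edgeR adjusted P = 0.0139), and Nfatc1 had 0.33 (adjusted P = 0.116), while by library size these were 0.60 and 0.59, both called, and Akap5 had −0.84 (edgeR adjusted P = 0.00449). Of 11 thyroid hormone genes, which regulate Myh6 and Myh7, 2 were lower at 6 weeks and 0 higher (0 and 4 by library size). The receptor gene Thrb was lowest at −0.44 but was not called (edgeR adjusted P = 0.0709), and by library size it had −0.18 (adjusted P = 0.411). Of 10 transcription factors, 2 were lower and 0 higher (0 and 1 by library size), with Gata4 lowest (−0.46, edgeR adjusted P = 0.166), whereas all 4 macrophage markers were higher at 6 weeks by both scalings.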

How the data were processed

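RNA from 18 CD-1 mice (6 per group) was sequenced. Alignment by the authors used STAR and GRCm38, followed by Salmon 1.0 (per the submitters' notes) and tximport, and the deposited estimated counts per gene carry no scaling between mice. TPM values were deposited from the same run and correct for transcript length and depth.

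Estimated counts were rounded and fitted with edgeR 4.0.16 in R 4.3.3 (TMM, quasi-likelihood test, 3 groups in one fit). The filter on low counts required 0.23 CPM or more in 6 or more mice, and P values were adjusted over 15054 genes. The SE is the log2 fold change divided by the square root of F. Ratios came from TPM and exact two-sided permutation tests, and pairs of members from 100000 permutations. Alternatives used DESeq2 1.42.0 and limma 3.58.1. Nothing says that mice of a group were raised apart, and P values measure the spread between these mice. In simulated 6wk and ctrl counts (14896 genes), 40.3% of 67 genes changed by 1.5-fold, 80.6% of 67 by 2-fold and 89.4% of 66 by 4-fold were found. The simulation gave 144 calls against 3760 in the data. Its adjustment was therefore stricter, and these shares do not carry over to the 6-week test. Named related genes had an adjusted P under 0.05 and an absolute log2 fold change above 0.5, or the highest or lowest value of a list. Neighbors of Nppb were named after their values were seen. Members and lists were chosen with earlier results of these data known. Protein sequences were not used here. One of the genes most like Myh7 is not reported here.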

Additional observations from a re-analysis of the deposited data

Results flagged for a closer look

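In 3 of 30 groups of 6 mice, a mouse stood farther from the next than Dixon's 95% critical value. The distance is taken as a share of the group's range. That value gives about 1 in 20 such groups only for normally distributed values. Whether these values were so distributed was not tested, so no conclusion is drawn from the count. Nppb had 158.5 CPM in 6wk mouse 5, where the next mouse had 51.4 CPM (gap 0.724 of the range). Myh7 had 1147 CPM in 2wk mouse 1, where the next had 711 CPM (gap 0.697). Rcan1 had 124.2 CPM in ctrl mouse 4, where the next had 75.4 CPM (gap 0.635).

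Rcan1 at 2 weeks lay above the ctrl mean of the same kind in every mouse without Y-linked counts and below it in every mouse with them, and the mean changes differed by 0.82 on the log2 scale. The ctrl mean of mice with Y-linked counts rests on ctrl 4 (124.2 CPM), since the other ctrl mice of that kind had 69.7 and 75.4 CPM and 2wk mouse 5 had 79.7 CPM. In edgeR's fit the difference was 0.85 (SE 0.347), with an unadjusted P of 0.0261 and an adjusted P of 0.809 over all genes.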

How the results depend on the processing

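The higher Ankrd1 at 6 weeks was called in all 14 alternatives and without each of 18 mice, and the lower Myh6 in 8 of 14 and in 14 of 18. The log2 changes of the 7 members gave 672 alternative values, of which 614 kept direction and side of the threshold, 24 reversed, 24 became called and 10 lost a call. The cause of these changes was not tested. Of the members at 6 weeks against ctrl (2 called), 4 were called on the log2(TPM + 1) and log2(TPM + 0.1) scales, 1 with only the groups compared in the fit, 0 with a log2 fold change above 1, and 1 to 3 without single mice. On those TPM scales 7354 and 7342 of the 15054 genes were higher and 118 and 121 lower. With only the groups compared, 1774 genes were higher and 1376 lower. From 2 to 6 weeks (0 called), DESeq2, limma voom and library size as the only scaling called 1 member each, scaling to cardiomyocyte markers called 3, and leaving out single mice gave 0 to 2. The first of these settings called 717, 730 and 1098 of all genes higher and 447, 466 and 104 lower. Scaled to the markers, 6282 of all genes were higher and 65 lower. Without a low-count filter 2 members were called at 6 weeks, beside 1876 genes higher and 1500 lower.

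Uncalled values reversed at 2 weeks for Myh6 (0.037 with library size only, 0.10 on both TPM scales) and Myh7 (0.054, 0.13 and 0.13, and 0.028 with the component of genes near Nppb). Nppa reversed to 0.0029 and 0.0026 on the TPM scales at 6 weeks and to −0.10 from 2 to 6 weeks with the Fbxo44 covariate. The Acta1 share at 6 weeks reversed to 0.141 percentage points with estimated counts. Without single mice the ranges were −2.88 to 3.95 for that share, −0.221 to 0.189 for the Myh7 share at 2 weeks, −0.79 to 0.11 for Nppa and −0.093 to 0.22 for Rcan1 against ctrl at 6 and 2 weeks, and from 2 to 6 weeks −0.065 to 0.43 for Acta1, −0.10 to 0.51 for Nppa and −0.60 to 0.49 for Nppb.

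Counts of all genes called ranged, over alternatives that left out no mouse and used no fold minimum, from 486 to 3026 at 2 weeks (755 in the report), from 3150 to 7472 at 6 weeks (3760) and from 542 to 6347 from 2 to 6 weeks (802). With the replicate number as a replicate block, 1 member was called at 6 weeks, since Myh6 had −0.47 (edgeR adjusted P = 0.0623), and 3549 genes were. Mice of the same number had correlations of −0.0828 to 0.106 over 18 pairs, 2 of them above 0.1, and 3 mice correlated best with their own number, so the numbers were not taken to pair mice. Scaling to cardiomyocyte markers, the covariates, the sets by Fbxo44 and the split by Y-linked counts were chosen after seeing the data. With 6 mice per group, changes of 1.5-fold were often missed in simulation, where fewer genes were called and the adjustment was stricter than in the 6-week data.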

Other observations

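The conduction system list, whose myocytes also express natriuretic peptides, had sums of 147.4 to 182.8 CPM in ctrl, 134.6 to 170.0 at 2 weeks and 133.1 to 186.2 at 6 weeks, with 2 of 9 genes lower and 0 higher at 6 weeks (0 and 1 with library size as the only scaling). Of 4 endothelial markers, 2 were higher and 1 lower at 6 weeks (3 and 0 by library size). Of 4 fibroblast markers, 1 was lower (Pdgfra, −0.88, or −0.63 by library size) and 0 were higher at 6 weeks. The 4 smooth muscle markers had 0 calls in each comparison. Erythroid markers summed to 45.8 to 1118 CPM in ctrl and 40.3 to 107.7 CPM at 6 weeks, with 1 of 4 lower. Of all genes, 11.5% were lower and 13.5% higher at 6 weeks by TMM.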
